A study of Mus musculus with 15 samples.

Results

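The microRNAs (miRNAs) described here are miR-126a, which is known from endothelial cells, and miR-143 and miR-145a, which are known from smooth muscle. They were chosen by name, as the hairpin entries mmu-mir-126a, mmu-mir-143 and mmu-mir-145a (the prefix mmu- is left out below), and are 3 of the 1226 hairpins in the table. Small RNA was sequenced from mouse embryos of strain C57BL/6, either miR-302 knockout (KO) or wild type (WT). At embryonic day 7.5 (E7.5) there were 2 KO and 2 WT libraries of whole embryos. At E8.5 there were 4 KO and 3 WT libraries of sorted neural crest cells labelled Wnt1-Cre+, described as a mix of cells before and after migration. At E9.5 there were 2 KO and 2 WT libraries of sorted Sox10+ neural crest cells, described as having migrated. The label Wnt1-Cre+ stands on KO and WT samples alike. The labels do not say how the knockout was made, which reporter the sorts used, or whether replicates came from separate litters. All p-values therefore rest on the spread seen between replicate libraries, part of which may be technical. Stage and cell source change together and cannot be told apart.

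A miRNA is cut from a hairpin in a longer transcript, loaded into an Argonaute protein, and pairs through its seed, bases 2 to 8 of the mature strand, with messenger RNAs that it lowers. miR-126 is processed from an intron of Egfl7, a gene of endothelial cells, and is known to hold back Spred1 and Pik3r2, which dampen signalling from the vascular endothelial growth factor receptor. miR-143 and miR-145 come from a shared long transcript of smooth muscle and early heart and favour the contractile state of smooth muscle, with Klf4 a known target of miR-145 and Elk1 of miR-143. Neural crest gives rise to smooth muscle of the large arteries near the heart but not to endothelium, and miR-145 is known to push cultured neural crest stem cells towards smooth muscle. Small RNA holds no messenger RNA of Sox10 or Wnt1, so the sorts could not be checked against those markers.

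In the GENCODE M21 annotation of GRCm38, Mir126a lies on the plus strand of chromosome 2 from 26591357 to 26591429. It sits inside Egfl7, on the same strand, in an intron of its protein-coding transcripts that runs from 26591064 to 26591433. An exon of 1 other Egfl7 transcript also overlaps it. Mir126b is annotated on the opposite strand from 26591363 to 26591420, with all 58 of its bases inside Mir126a. The RefSeq sequences (GRCm38.p6) of this locus, 5′ to 3′, are shown because miR-126a and miR-126b are read from opposite strands of the same bases. Capitals mark the mature 3p strand in the hairpin, the seed in miR-126a-3p, and in miR-126b-5p the 19 bases that are complementary to miR-126a-3p.
mir-126a hairpin: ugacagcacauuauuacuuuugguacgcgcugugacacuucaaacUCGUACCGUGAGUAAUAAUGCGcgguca
miR-126a-3p: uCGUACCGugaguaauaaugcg
miR-126b-5p: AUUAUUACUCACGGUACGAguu
Of the 1738 mature mouse miRNAs in the RefSeq table, 1 carries the seed CGUACCG, namely miR-126a-3p itself. All table entries for mature arms were at 0, so the values here are those of whole hairpins and cannot be split into 5p and 3p strands. mir-126b was at 0 in all 15 libraries, and the files do not state whether strand was used in counting.

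Mir145a and Mir143 lie beside each other on the minus strand of chromosome 18, at 61647825 to 61647894 and 61649196 to 61649258, with 1301 bases between them. RefSeq places both within Carmn, a long noncoding RNA that extends from 61645878 to 61665538. The GENCODE model of Carmn, also on the minus strand, ends 366 bases short of Mir143 and covers neither hairpin. The related hairpin mir-145b had 3 reads in E7.5 WT replicate 2 and none in the other libraries.

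Values are normalized counts, the number of reads of a hairpin divided by a size factor per library. Depth ran from 1706 reads in E8.5 KO replicate 3 to 323389 in E9.5 WT replicate 1. A single read was worth 19.3 normalized counts in the shallowest library and 0.147 in the deepest. As a check of the genotype labels, the sum of miR-302a to miR-302d was 13.2 to 31.0 normalized counts in KO embryos, against 4001 to 14226 in WT embryos, at E7.5. It was 0 to 19.3 in KO cells, against 3875 to 6522 in WT cells, at E8.5. At E9.5 it was 75.4 to 148 in KO cells, against 338 to 466 in WT cells, so the targeted miRNAs were lower but not near 0 in the libraries labelled KO. All 3 hairpins reached 10 normalized counts in 2 or more libraries, the filter for testing, which 299 hairpins passed. Fold changes are from limma on log2(normalized count + 1), with p-values adjusted by Benjamini-Hochberg over the 299 hairpins and a threshold of 0.05. In bulk samples, fewer cells of a type and less RNA per cell cannot be told apart.

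**Figure D1:**
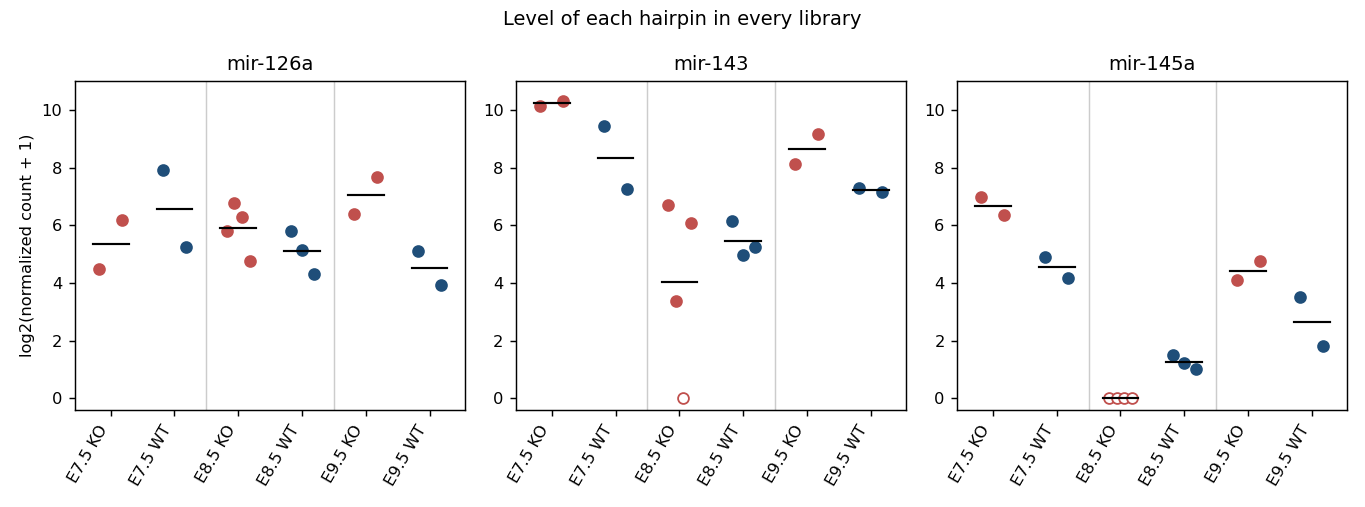
Level of mir-126a, mir-143 and mir-145a in each library, as log2(normalized count + 1) on the vertical axis, with KO in red left of WT in blue at each stage. Each point is a library, open points have no read, and bars are means; mir-145a had no read in any of the 4 E8.5 KO libraries, while mir-126a has no group apart from all others.

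The endothelial hairpin mir-126a was read in every library, at levels that overlapped between most pairs of groups. Its group means, high to low, were 143.3 ± 84.4 normalized counts in E9.5 KO cells, 137 ± 142 in E7.5 WT embryos, 66.5 ± 34.3 in E8.5 KO cells, 46.9 ± 36.0 in E7.5 KO embryos, 36.2 ± 18.2 in E8.5 WT cells and 23.9 ± 13.5 in E9.5 WT cells (SD over 2, 3 or 4 libraries). The ranges of each pair of neighbours in this order overlapped. Further apart in the order, E9.5 KO cells (83.6 to 203) lay above E7.5 KO embryos (21.5 to 72.3), E8.5 WT cells (18.8 to 55.1) and E9.5 WT cells (14.3 to 33.5). E7.5 WT embryos (37.3 to 238) also lay above E9.5 WT cells. As a share of all reads in a library, mir-126a ran from 0.0337% in E9.5 WT replicate 2 to 0.342% in E7.5 WT replicate 1. The exact 95% binomial intervals of these shares, which cover counting error only, were 0.0246% to 0.0449% and 0.311% to 0.375%.

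At E7.5, mir-126a had 21.5 and 72.3 normalized counts in KO embryos, against 238 and 37.3 in WT embryos. The groups overlapped, and the spread between the WT libraries exceeded the difference between KO and WT means. limma gave a log2 fold change of -1.24 ± 0.97 (SE; 95% interval -3.32 to 0.85; limma adjusted p = 0.983). Without WT replicate 1, the library with the highest level, it was 0.08.

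At E8.5, mir-126a had 55.2, 107, 77.3 and 26.1 normalized counts in KO cells, against 55.1, 34.6 and 18.8 in WT cells. The highest value in WT cells lay within the KO range, and the KO values of 77.3 and 26.1 rest on 4 and 7 reads. With a log2 fold change of 0.82 ± 0.74 (SE; 95% interval -0.78 to 2.41), the difference did not pass the test (limma adjusted p = 0.664).

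At E9.5, mir-126a was present at 83.6 and 203 normalized counts in KO cells, from 57 and 70 reads, against 33.5 and 14.3 in WT cells, from 228 and 46 reads. Both KO libraries lay above both WT libraries, as was the case in the same direction for 35.5% of all tested hairpins at this stage. The ratio of means was 5.99 and the log2 fold change 2.51 ± 0.97 (SE; 95% interval 0.43 to 4.60), which did not pass the test (limma adjusted p = 0.222). The adjusted p was 0.0858 in edgeR and 0.0398 in DESeq2, both run on recovered reads. DESeq2 called 42 hairpins in this comparison, against 2 by limma and 2 by edgeR. The log2 fold change was 1.75 with TMM scaling and 1.88 without E9.5 KO replicate 2. Label code and genotype coincide at E9.5, with all KO libraries coded 171 and all WT libraries coded 209, and cannot be told apart.

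The smooth muscle hairpin mir-143 had higher levels in E7.5 embryos than in E8.5 sorted cells in both genotypes, with no overlap. Its group means, high to low, were 1196 ± 108 normalized counts in E7.5 KO embryos, 427 ± 212 in E9.5 KO cells, 419 ± 377 in E7.5 WT embryos, 149 ± 10.1 in E9.5 WT cells, 45.9 ± 21.03 in E8.5 WT cells and 44.7 ± 48.6 in E8.5 KO cells (SD over 2, 3 or 4 libraries). Ranges of neighbours did not overlap between E7.5 KO embryos and E9.5 KO cells, nor between E9.5 WT and E8.5 WT cells. The other neighbours in this order overlapped. Its share of reads was 2.22% in E7.5 KO replicate 2 (95% interval 2.09% to 2.35%), where it ranked 7 among all hairpins, and 0.0282% in E8.5 KO replicate 2 (0.0150% to 0.0482%).

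At E7.5, mir-143 had 1120 and 1272 normalized counts in KO embryos, against 686 and 153 in WT embryos. Both KO embryos lay above both WT embryos, with a ratio of means of 2.85. Its log2 fold change of 1.88 ± 1.57 (SE; 95% interval -1.50 to 5.26) did not pass the test (limma adjusted p = 0.983). It was 2.96 without WT replicate 1 and 0.80 without WT replicate 2. The 2 WT embryos differed from each other by 4.49-fold, more than the KO and WT means did.

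In E8.5 KO cells mir-143 had 103, 9.29, 0 and 67.2 normalized counts, against 69.8, 30.5 and 37.3 in E8.5 WT cells. The value of 0 comes from replicate 3, whose 1706 reads allow a level of up to 58.0 normalized counts (3 reads), so it does not separate that library from the others. The KO libraries coded 128, replicates 2 and 3, held the lowest values. limma gave a log2 fold change of -1.42 ± 1.201 (SE; 95% interval -4.00 to 1.16; limma adjusted p = 0.664). It was -0.08 without replicate 3 and 0.93 without both libraries coded 128, and edgeR and DESeq2 gave 0.17 and 0.13. The libraries that share code 169 had 67.2 normalized counts (18 reads) in KO replicate 4, against 30.5 (90 reads) in WT replicate 2.

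At E9.5, mir-143 had 277 and 577 normalized counts in KO cells, against 156 and 142 in WT cells. The groups did not overlap and the ratio of means was 2.87. On the log2 scale the fitted difference was 1.42 ± 1.57 (SE; 95% interval -1.96 to 4.80; limma adjusted p = 0.618), and it was 0.64 with TMM scaling, 0.92 with library-sum scaling and 0.89 without KO replicate 2.

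The partner hairpin mir-145a followed a similar order at lower read numbers. Its group means, high to low, were 104 ± 32.0 normalized counts in E7.5 KO embryos, 23.2 ± 8.42 in E7.5 WT embryos, 21.1 ± 7.05 in E9.5 KO cells, 6.39 ± 5.51 in E9.5 WT cells, 1.41 ± 0.407 in E8.5 WT cells and 0 in E8.5 KO cells (SD over 2, 3 or 4 libraries). Among neighbours in this order, E7.5 WT embryos and E9.5 KO cells overlapped. E8.5 WT and KO cells could not be ordered, since the limits that 0 reads allow in the KO libraries (3 reads, 2.14 to 58.0 normalized counts) lie above every WT value. The other neighbours did not overlap. Between E9.5 WT and E8.5 WT cells this rests on few reads, since the limit of 3 reads in E8.5 WT replicate 1 (5.51) exceeds the lowest E9.5 WT value (2.50).

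At E7.5, mir-145a had 126.3 and 81.1 normalized counts in KO embryos, from 53 and 74 reads, against 29.1 and 17.2 in WT embryos, from 56 and 47 reads. Both KO embryos lay above both WT embryos, with a ratio of means of 4.48. The fitted log2 fold change was 2.13 ± 0.77 (SE; 95% interval 0.48 to 3.77). It did not pass the test after adjustment (limma adjusted p = 0.299, edgeR 0.372, DESeq2 0.182). With a pseudocount of 10 in place of 1 it was 1.77, with a limma adjusted p of 0.00952.

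In E8.5 cells mir-145a had 0 reads in all 4 KO libraries, against 1, 4 and 4 reads in the WT libraries, or 1.84, 1.36 and 1.03 normalized counts. The pooled KO reads allow a level of up to 1.27 normalized counts (3 reads over the group), and the pooled WT level was 1.22. A lower level in KO cells was therefore not detectable at this depth. The fitted log2 fold change of -1.25 ± 0.58 (SE; 95% interval -2.51 to 0.00; limma adjusted p = 0.510) depends on the pseudocount and became -0.19 with a pseudocount of 10.

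In E9.5 cells mir-145a had 16.1 and 26.1 normalized counts in KO libraries, from 11 and 9 reads, against 10.3 and 2.50 in WT libraries, from 70 and 8 reads. The groups did not overlap, with a ratio of means of 3.30. The log2 fold change was 1.78 ± 0.77 (SE; 95% interval 0.13 to 3.42; limma adjusted p = 0.250). It was 0.93 without WT replicate 2, 0.95 with a pseudocount of 10 and 1.08 with TMM scaling. At this stage all 3 hairpins were higher in both KO libraries than in both WT libraries.

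Set against all hairpins, 0 of the 3 passed the test between KO and WT at any stage. limma called 2.68% of tested hairpins at E7.5, 2.01% at E8.5 and 0.669% at E9.5. Groups did not overlap, with KO higher, for 2 of the 3 hairpins at E7.5 and for 3 of 3 at E9.5, against 10.4% and 35.5% of all tested hairpins. An unadjusted p under 0.05 was seen for 28 hairpins at E7.5, 25 at E8.5 and 51 at E9.5, among them mir-145a at E7.5 and mir-126a and mir-145a at E9.5. edgeR also called 0 of the 3, and DESeq2 called mir-126a at E9.5 as given above. The median log2 fold change of all tested hairpins was -0.25 at E7.5, -0.20 at E8.5 and 0.02 at E9.5. TMM scaling moved that median by -0.03, -0.22 and -0.56, and library-sum scaling by 0.25, 0.19 and -0.35. The direction of each of the 3 hairpins at each stage was the same under both scalings.

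An F test of the interaction asked whether KO differed from WT to a different extent at the stages. The adjusted p was 0.402 for mir-126a (F = 3.75), 0.474 for mir-143 (F = 1.79) and 0.116 for mir-145a (F = 8.15). None passed, while 2.34% of tested hairpins did. For mir-145a the fitted differences were 2.13 at E7.5, -1.25 at E8.5 and 1.78 at E9.5 (log2), and its adjusted p was 0.0491 without E7.5 KO replicate 2.

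**Figure D2:**
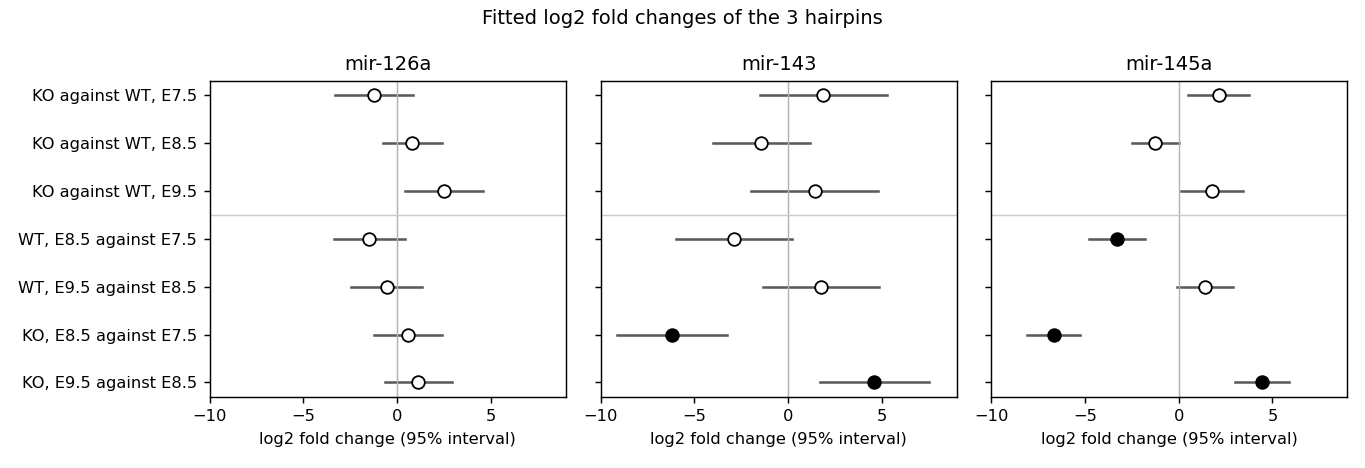
Log2 fold changes from limma with 95% intervals on the horizontal axis, for each comparison down the page, KO against WT above and later against earlier stage below. Filled points passed an adjusted p of 0.05; they are mir-145a in WT at E8.5 against E7.5, and mir-143 and mir-145a in both KO stage comparisons.

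Between stages, the smooth muscle hairpins had their lowest group means in E8.5 sorted cells, and mir-126a passed no test. In KO, mir-143 and mir-145a both fell at E8.5 relative to E7.5 embryos and both rose at E9.5 relative to E8.5. In WT, mir-145a fell at E8.5 relative to E7.5. Because whole embryos are set against sorted cells, these differences do not separate a change over time from the cells that the sort kept. The stages also share no label code, so code and stage cannot be told apart.

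In E8.5 KO cells mir-143 was 26.7-fold lower by group means than in E7.5 KO embryos. limma gave a log2 fold change of -6.19 ± 1.36 (SE; 95% interval -9.11 to -3.26; adjusted p = 0.00323). This value was -4.84 when E8.5 KO replicate 3 was left out and -3.83 when both libraries coded 128 were, with adjusted p of 6.14e-04 and 5.50e-04. On recovered reads edgeR gave -4.56 and DESeq2 -4.60. Pooled reads, which give little weight to the shallow library, put the level 30.0-fold lower (exact interval 24.4 to 37.3, counting error only).

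For mir-145a, E8.5 KO cells had no read, against 127 reads in E7.5 KO embryos. This makes the level at least 74.8-fold lower against the limit of 3 reads over the group. limma gave -6.68 ± 0.66 on the log2 scale (SE; adjusted p = 4.85e-06), a value that depends on the pseudocount and was -3.48 with 10, still with an adjusted p of 1.94e-06. Thus 2 of the 3 hairpins fell in this comparison, in which limma called 31.1% of tested hairpins and 20.7% as lower. Neither overlapped between the groups, as was the case in that direction for 27.8% of tested hairpins. The median of all tested hairpins was -0.60, and TMM scaling moved it by 0.32.

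For mir-126a the same comparison gave a log2 fold change of 0.56 ± 0.84 (SE; 95% interval -1.24 to 2.37; adjusted p = 0.651). Leaving out E7.5 KO replicate 1 gave -0.29, and leaving out the libraries coded 128 gave -0.06.

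In WT, mir-145a was 16.5-fold lower by group means in E8.5 cells than in E7.5 embryos, from 9 reads against 103. It fell by 3.30 ± 0.70 on the log2 scale (SE; 95% interval -4.80 to -1.79; limma adjusted p = 0.00309). Without E7.5 WT replicate 1 the log2 fold change was -2.93, with an adjusted p of 0.0539, and with a pseudocount of 10 it was -1.52, with 0.00361. limma called 18.4% of tested hairpins in this comparison and 17.1% as lower. The level of mir-143 was 9.14-fold lower by group means, but its log2 fold change of -2.88 ± 1.43 (SE; 95% interval -5.97 to 0.20) did not pass (limma adjusted p = 0.208). Neither smooth muscle hairpin overlapped between the groups, as was the case in that direction for 38.8% of tested hairpins. The difference of mir-143 passed in edgeR and DESeq2, with adjusted p of 0.00386 and 8.74e-04, and in limma once E8.5 KO replicate 3 was left out, with 0.0250. That library is no part of the WT comparison and enters the fit through the shared estimate of the spread. The groups overlapped for mir-126a, whose log2 fold change was -1.49 ± 0.89 (SE; 95% interval -3.39 to 0.41; adjusted p = 0.311).

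In E9.5 KO cells mir-143 was 9.55-fold higher by group means than in E8.5 KO cells. It rose by 4.61 ± 1.36 on the log2 scale (SE; 95% interval 1.68 to 7.54; limma adjusted p = 0.0267). The call was lost, with adjusted p of 0.0549 to 0.236, when E8.5 KO replicate 2 or either E9.5 KO library was left out, and the value was 2.26 without both libraries coded 128 (adjusted p = 0.0315). On recovered reads edgeR gave 3.07 and DESeq2 3.11. mir-145a was at least 15.3-fold higher, with 20 reads against 0, and its log2 fold change was 4.43 ± 0.66 (SE; limma adjusted p = 8.71e-04), or 1.62 with a pseudocount of 10 (adjusted p = 0.00289). Thus 2 of the 3 hairpins rose, in a comparison in which limma called 27.1% of tested hairpins and 18.4% as higher. The groups did not overlap for either, as for 27.1% of tested hairpins in that direction, although E8.5 KO replicate 3 cannot show a level of mir-145a under 58.0 normalized counts. mir-126a had a log2 fold change of 1.13 ± 0.84 (SE; 95% interval -0.67 to 2.94; adjusted p = 0.347).

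In WT cells, E9.5 against E8.5 gave no call among the 3 hairpins, where limma called 3.01% of those tested. mir-143 was 3.25-fold higher by group means and mir-145a 4.54-fold higher, both without overlap, as was the case in that direction for 28.1% of tested hairpins. For mir-145a, E8.5 WT replicate 1 had 1 read, and 3 reads there would be 5.51 normalized counts, above the 2.50 of E9.5 WT replicate 2. Their log2 fold changes were 1.77 ± 1.43 and 1.397 ± 0.70 (SE; limma adjusted p = 0.659 and 0.385). For mir-145a DESeq2 gave an adjusted p of 0.0495. mir-126a overlapped between the groups, with a log2 fold change of -0.57 ± 0.89 (SE; adjusted p = 0.874). The WT and KO stage comparisons have no library in common, and the interaction test above, which sets them against each other, was passed by none of the 3 hairpins.

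**Figure D3:**
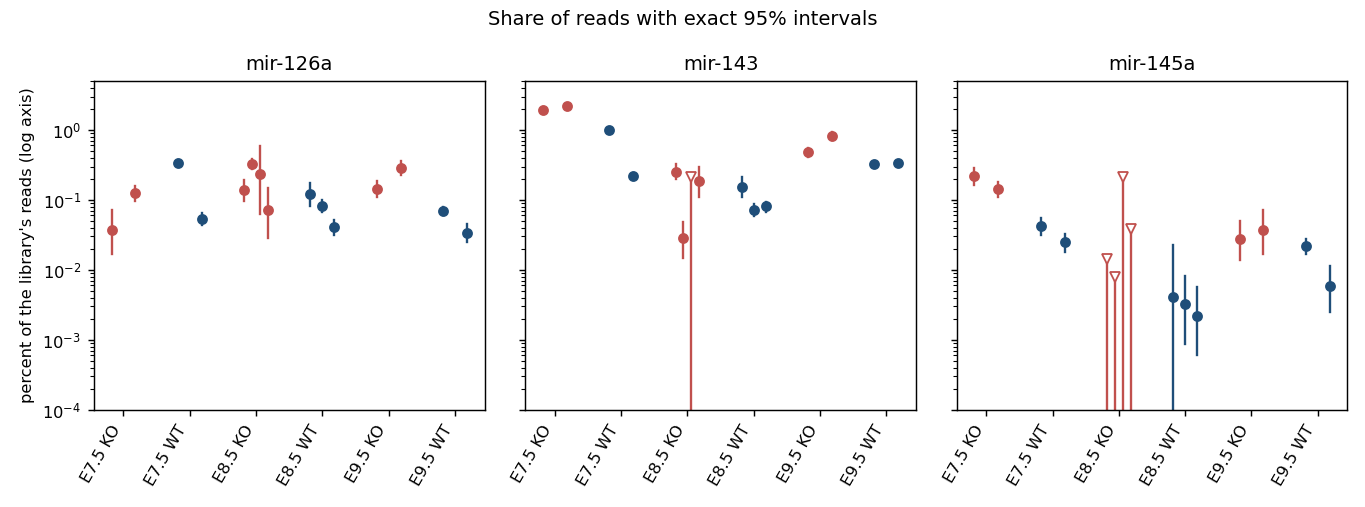
Share of each library's reads, in percent on a log axis, with exact 95% binomial intervals that cover counting error only, KO in red left of WT in blue. Open triangles mark the upper limit in libraries with no read; the limit is 0.216% in the E8.5 KO library with 1706 reads and 0.00800% in E8.5 KO replicate 2.

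The level of the endothelial hairpin relative to the smooth muscle hairpins was followed within each library, as log2 of mir-126a over the sum of mir-143 and mir-145a, with 1 normalized count added to each. Such a ratio does not depend on the size factors, apart from the added count. It is read only between libraries, since small RNAs of different sequence are not captured alike. At E7.5 it was -5.80 and -4.21 in KO embryos, against -1.59 and -2.16 in WT embryos. KO embryos thus had the lower ratio, with means of -5.00 ± 1.12 and -1.87 ± 0.40 (SD, n = 2 each).

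In E8.5 KO cells the ratio was -0.88, 3.39, 6.29 and -1.33, against -0.37, 0.11 and -0.99 in E8.5 WT cells. The KO libraries lay on both sides of the WT range, and the highest value rests on 4 reads of mir-126a and 0 of the smooth muscle hairpins. The 2 high ratios belong to the libraries coded 128. At E9.5 the ratio was -1.80 and -1.57 in KO cells, against -2.28 and -3.24 in WT cells, so that KO cells had the higher ratio. The order of KO and WT at E7.5 was thus the opposite of that at E9.5. No test was made of this ratio.

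**Figure D4:**
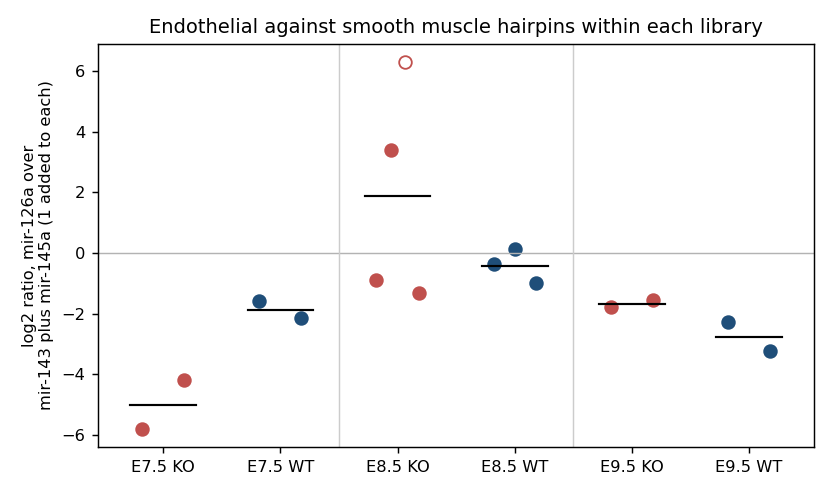
Log2 ratio of mir-126a over mir-143 plus mir-145a in each library, with 1 normalized count added to each term, KO in red left of WT in blue at each stage. Points are libraries and bars are means; the E7.5 KO embryos are lowest at -5.80 and -4.21, and the open point at 6.29 is the E8.5 KO library with 1706 reads.

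Other miRNAs of vascular, muscle and blood cells were looked at beside the 3 hairpins. The endothelial list held mir-126a, mir-126b, mir-221, mir-222 and mir-296, of which 4 were tested and 0 passed in limma, in any comparison of KO with WT or between stages. At E9.5, 2 of the 4, mir-126a and mir-221, had an unadjusted p under 0.05 for KO against WT, and the same 2 were called by DESeq2 and 0 by edgeR. Over all tested hairpins, 17.1% had such a p and DESeq2 called 14% in this comparison. mir-221, which acts with mir-222, averaged 38.6 normalized counts in E9.5 KO cells and 7.70 in E9.5 WT cells (log2 fold change 2.32, limma adjusted p = 0.222). Their median log2 fold change was -0.65 at E7.5, 0.47 at E8.5 and 1.02 at E9.5 for KO against WT, where the medians of all tested hairpins were -0.25, -0.20 and 0.02. The summed level of the list, mir-126a included, was 178 to 276 normalized counts in E9.5 KO cells, against 77.0 to 78.9 in E9.5 WT cells. Within that sum, mir-126a alone averaged 143.3 in KO cells and 23.9 in WT cells. Both E9.5 KO libraries lay above both WT libraries for 35.5% of all tested hairpins as well. mir-296, which is known from growing vessels, had 17.5 ± 0.14 in E9.5 KO cells, against 29.8 ± 1.14 in E9.5 WT cells (SD, n = 2 each; log2 fold change -0.73, adjusted p = 0.580). mir-222, which restrains endothelial growth signals through the receptor Kit, averaged 27.1 ± 34.3 in E9.5 KO cells and 16.6 ± 4.76 in E9.5 WT cells (SD, n = 2 each; log2 fold change -0.27, adjusted p = 0.947). By the fitted values, 2 of the 4 were above 0 at E9.5. By group means mir-222 was higher in KO cells as well, with 2.90 and 51.3 normalized counts in KO libraries, against 13.2 and 19.96 in WT libraries, so its sign rests on the lower KO library.

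Blood cells are another cell type that an embryo or a sort could hold. Their hairpin mir-451a, the main miRNA of red cells, was at 0 in every library, as were mir-451b, mir-142a and mir-486b. Whether strand was used in counting is not stated, as for mir-126b above. These entries at 0 therefore do not show that blood cells were absent. Of the 11 names in the blood list, 9 had an entry, 5 were above 0 in any library and 1, mir-155, was tested. Among those above 0, mir-144 had few reads in every group, from 3 in E8.5 WT to 17 in E9.5 WT cells. At E9.5 its range was 0 to 8.80 normalized counts in KO cells (6 reads), against 0.936 to 2.06 in WT cells. At that stage mir-223 averaged 5.83 normalized counts in KO and in WT cells alike, from 6 and 58 reads. The summed blood list was 20.3 to 24.9 normalized counts in E9.5 KO cells, against 10.9 to 12.9 in E9.5 WT cells, and 9.53 to 49.3 in E7.5 KO embryos, against 44.6 to 134 in E7.5 WT embryos. For 35.5% of all tested hairpins, too, both E9.5 KO libraries lay above both WT libraries. mir-155 averaged 8.02 ± 0.966 normalized counts in E9.5 KO cells and 3.53 ± 1.46 in E9.5 WT cells (SD, n = 2 each; log2 fold change 1.03, adjusted p = 0.618). These means rest on 8 reads in KO and 39 in WT cells, and the higher KO value, 8.70, equals 3 reads of E9.5 KO replicate 2. The part of these cells in the mir-126a values was not tested.

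The early heart, which also makes miR-143 and miR-145, carries miRNAs of striated muscle. Of the 10 striated muscle hairpins, mir-1a-2 and mir-208a were at 0 in every library and 1 was tested. That hairpin, mir-1a-1, had 57.2 ± 53.9 normalized counts in E7.5 KO embryos and 29.9 ± 26.8 in E7.5 WT embryos (SD, n = 2 each; log2 fold change 0.85, adjusted p = 1). Its level was 18.7 ± 29.7 in E8.5 KO cells (SD, n = 4) and 17.2 ± 9.08 in E8.5 WT cells (SD, n = 3). At E9.5 it was 52.5 ± 3.70 in KO cells and 29.3 ± 35.4 in WT cells (SD, n = 2 each).

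Among 5 mesenchymal hairpins, all tested, 3 rose in E9.5 against E8.5 KO cells and 2 rose in E9.5 against E8.5 WT cells. limma called 18.4% of all tested hairpins as higher in the KO comparison and 1.34% in the WT comparison. The medians of the list were 3.59 and 4.30, against 0.40 and 0.03 for all tested hairpins. Its members mir-199a-1, mir-199a-2 and mir-199b ran close together, with means of 520, 544 and 459 normalized counts in E9.5 WT cells. Counting may divide reads between such related hairpins, so the members are not independent. mir-199a-2, a miRNA of mesenchyme, had 218 ± 17.2 normalized counts in E9.5 KO cells and 544 ± 48.6 in E9.5 WT cells (SD, n = 2 each). The summed list was 676 to 747 in E9.5 KO cells, against 1630 to 1779 in E9.5 WT cells, the opposite order to mir-126a, mir-143 and mir-145a at that stage. Its 5 members gave 0 calls in that comparison in limma, edgeR and DESeq2, and none had an unadjusted p under 0.05, with a median log2 fold change of -1.36. What the mesenchymal, muscle and blood miRNAs contribute to the values of the 3 hairpins was not tested.

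Likeness over the 15 libraries was measured as Pearson's r of log2(normalized count + 1) against the 298 other tested hairpins, as a description in which stage, cell source and depth are shared by all points. mir-143 and mir-145a had r = 0.83, which placed mir-145a at rank 20 among hairpins most like mir-143, and mir-143 at rank 8 among those most like mir-145a. mir-126a had r = 0.09 with mir-143 and 0.20 with mir-145a. Its 5 nearest were mir-30d (0.66), mir-1247 (0.64), mir-125a (0.61), mir-27a (0.60) and mir-221 (0.59), the last a member of the endothelial list.

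The 5 hairpins nearest to mir-143 were mir-22 (r = 0.96), let-7i (0.94), let-7g (0.93), let-7f-1 (0.91) and mir-23a (0.91). mir-22 averaged 294 normalized counts in E7.5 KO embryos and 86.6 in E7.5 WT embryos, 20.1 in E8.5 KO cells and 22.8 in E8.5 WT cells, and 169 in E9.5 KO cells and 39.9 in E9.5 WT cells. It thus had the high level in E7.5 KO embryos and the low level in E8.5 cells that mir-143 showed. Its likeness to mir-143 in these same libraries is what placed it first. At E7.5 the KO and WT means were 314 and 299 for let-7i, and 424 and 531 for let-7g. They were 541 and 774 for let-7f-1, and 147 and 240 for mir-23a. Nearest to mir-145a were mir-7a-1 and mir-7a-2 (both 0.92), copies between which the counting may divide reads, and then mir-21a (0.86), mir-871 (0.86) and mir-182 (0.85). In the authors' deposited table of Mfuzz clusters of the WT stages, mir-143 and mir-145a stand together in cluster 3, with 155 hairpins, and mir-126a stands in cluster 5, with 63 hairpins, out of 7 clusters.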

How the data were processed

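Per the submitters' processing notes, reads were checked with FastQC 0.11.5 and aligned to mm10 with STAR 2.7.0f. Which tool counted them is not given in the sources used here. Each deposited signal value is a read count of a hairpin that the authors had divided by a size factor per library. Every value above 0 was a whole multiple of 1 read's worth (100% of 6086 values, within 0.001), so reads were recovered. All 2108 mature-arm entries were at 0. Of 1229 hairpin entries, 3 repeated a name, which left 1226 hairpins. The authors' deposited cluster numbers are an other unit, used as a description. In the deposited sheets 1 further per-library column matched no sample and was not used.

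All 15 libraries entered 1 limma 3.58.1 model (R 4.3.3, eBayes with trend, two-sided) with 6 group means, on log2(normalized count + 1). It covered hairpins that reached 10 normalized counts in 2 or more libraries, which held 98.5% to 99.6% of each library's reads. The script was tested on simulated data. On this scale the fold change of a hairpin near 0 depends on the pseudocount and on depth: it can be too small, or too large where a shallow library is at 0. Alternatives were edgeR 4.0.16 and DESeq2 1.42.0 on recovered reads with the authors' size factors, TMM and library-sum scaling, no filter, a pseudocount of 10, a replicate block and leaving out each library. Leaving out the libraries coded 128 (a number in the labels, not explained there) was added after seeing the data. The 13 pairs of libraries within groups all differed beyond sampling noise, with 3.02 to 181 as chi-square over its degrees of freedom (hairpins with at least 5 expected reads), and none was merged. The hairpins, the lists and the naming rule were chosen with earlier results of these data known. That rule took the 3 hairpins and, for each, the 5 most like it. List members are named by their mean level, or where they were at 0 in every library.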

Additional observations from a re-analysis of the deposited data

How the results depend on the processing

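Of 552 values of the 3 hairpins under an alternative, 530 kept their direction and their side of the threshold. Leaving out a library outside a comparison cannot change its fold change, and the F values of the interaction have no direction. The direction of many of these values was thus fixed in advance, and the count is no measure of how firm the results are. For KO against WT, mir-145a at E7.5 was 1.77 (log2) with a pseudocount of 10 (adjusted p = 0.00952), mir-126a at E9.5 was 2.57 in DESeq2 (0.0398), and mir-143 at E8.5 was 0.17 in edgeR, 0.13 in DESeq2 and 0.93 without the libraries coded 128. Between stages in WT, mir-143 at E8.5 against E7.5 passed with a pseudocount of 10 (-2.65, adjusted p = 0.0345), in edgeR (-3.22), in DESeq2 (-3.21) and without code 128 (-2.88, 0.00213), and mir-145a at E9.5 against E8.5 passed in DESeq2 (2.37). In KO, mir-126a at E8.5 against E7.5 was -0.056 without code 128, and mir-143 at E9.5 against E8.5 missed the threshold with library-sum scaling (3.92, 0.0529) and no filter (4.61, 0.0777). The cause was not tested.

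Counts of hairpins called moved by more than 1.5 times as follows. KO against WT gave 8 at E7.5, but 18 with no filter, 4 in edgeR and 4 in DESeq2. It gave 6 at E8.5, but 12 in DESeq2. It gave 2 at E9.5, but 1 with TMM scaling, 1 with library-sum scaling, 8 with no filter, 10 with a pseudocount of 10, 42 in DESeq2 and 14 without code 128. WT at E8.5 against E7.5 gave 55, but 88 in edgeR and 90 in DESeq2. WT at E9.5 against E8.5 gave 9, but 4 with no filter, 17 with a pseudocount of 10, 28 in edgeR, 41 in DESeq2 and 21 without code 128. KO at E9.5 against E8.5 gave 81, but 49 with no filter. The interaction gave 7, but 3 with library-sum scaling, 12 with no filter, 12 with a pseudocount of 10 and 11 in DESeq2.

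Leaving out each library in turn, the log2 fold change of mir-126a ranged from -2.56 to 0.082 for KO against WT at E7.5, from -1.15 to 0.019 for WT at E9.5 against E8.5, and from -0.29 to 1.42 for KO at E8.5 against E7.5. That of mir-143 ranged from -3.96 to -1.80 for WT at E8.5 against E7.5 and from 3.27 to 5.50 for KO at E9.5 against E8.5, and that of mir-145a from -3.66 to -2.93 for WT at E8.5 against E7.5. For KO against WT, mir-143 ranged from 0.80 to 2.96 at E7.5 and from 0.89 to 1.95 at E9.5, mir-126a at E9.5 from 1.88 to 3.15 and mir-145a at E9.5 from 0.93 to 2.62. The interaction F of mir-145a ranged from 5.98 to 11.1. Calls ranged from 6 to 27 (highest without E7.5 KO replicate 2) and 0 to 4 for KO against WT at E7.5 and E9.5, from 34 (without E7.5 WT replicate 1) to 72 and 1 (without any E8.5 or E9.5 WT library) to 19 (without E8.5 KO replicate 3) for WT between stages, from 14 (without E9.5 KO replicate 2) to 91 for KO at E9.5 against E8.5, and from 4 to 25 (without E7.5 KO replicate 2) for the interaction. A lone sample left in an arm is assumed to vary like the other groups.

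Deviations from the group means of samples of the same number had r = -0.23 (E7.5), 0.14, 0.13 and 0.09 (E8.5) and 0.19 (E9.5). In groups of 2 libraries these deviations mirror each other, so the sign of r at E7.5 and E9.5 depends only on how replicates were numbered. Whether the numbers pair the samples could therefore not be decided this way. With a replicate block, calls were 1 for KO against WT at E9.5, 1 for WT at E9.5 against E8.5 and 4 for the interaction, and no call among the 3 hairpins changed. E8.5 KO replicate 3 has 1706 reads, so hairpins below 58.0 normalized counts cannot be told from 0 there.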
